A study of Mus musculus with 12 samples.

Results

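The tetraspanins that carry a CD name form a family of 7 genes here, Cd9, Cd37, Cd53, Cd63, Cd81, Cd82 and Cd151, taken by symbol from a table of 5545 genes. The symbols of these 5545 genes end at those beginning with Cyp. Counts and shares over all genes tested therefore refer to that part of the alphabet and not to the whole transcriptome. All 7 members were found, and all 7 passed the filter on low counts. RNA was sequenced from liver NK cells and group 1 innate lymphoid cells (ILC1) of C57BL/6 mice, 3 lean and 3 obese, so that 12 libraries fell into 4 groups of 3. Lean mice had been fed RM1 expanded diet, and obese mice the 824018 - 45% AFE fat diet with condensed milk, in each case for 12 weeks from weaning. The methods of the study describe the C57BL/6J mice as female. NK cells were gated as Lin- NK1.1+ CD49a- CD49b+ and ILC1 as Lin- NK1.1+ CD49a+ CD49b-, both from the same liver. No group carried a deletion or a transgene. Other members of the tetraspanin superfamily are not analysed here.

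Tetraspanins are small proteins that cross the membrane repeatedly and gather integrins, immunoglobulin-family receptors and proteases into membrane microdomains. Some members act mainly at the cell surface, where they tune adhesion and signalling, and others mark compartments inside the cell. In cytotoxic lymphocytes, CD63 is best known as a protein of late endosomes, lysosomes and lytic granules that reaches the surface upon degranulation, whereas CD53 and CD37 are restricted to leukocytes.

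All 7 genes are protein-coding in the GENCODE M21 annotation of GRCm38. Cd63 lies on the plus strand at chr10:128900989-128912822 and Cd9 on the minus strand at chr6:125460266-125494791. Cd53 occupies chr3:106759921-106790149 on the minus strand and Cd82 chr2:93419111-93463140 on the minus strand. Chromosome 7 holds the other members, with Cd37 at chr7:45233632-45239115 on the minus strand, Cd151 at chr7:141467392-141471473 on the plus strand and Cd81 at chr7:143052739-143067934 on the plus strand. Exons of 4 members share bases with a gene on the opposite strand, namely 218 bases of Cd9 with Gm26728, 193 of Cd151 with Gm10575, 104 of Cd81 with R74862 and 13 of Cd37 with Tead2. Whether strand was used in counting is not given in the sources used here, so reads in those bases cannot be assigned to either gene.

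The sequence before the transcription start is shown for 3 members, Cd63 and Cd9 because they differed between NK cells and ILC1, and Cd53 because it was the most abundant and least variable member. RefSeq windows on GRCm38.p6 were read from 250 bases before the start, and bases that GENCODE places in an exon of the gene were left off. All 7 members had a window, 11 windows in all. Capitals mark matches, on either strand, to 7 short motifs of general and lymphocyte factors whose letters are given after the sequences. The windows are chr10:128909095-128909344 on the plus strand for Cd63, chr6:125494792-125495010 on the minus strand for Cd9 and chr3:106790150-106790399 on the minus strand for Cd53. The Cd63 window precedes a RefSeq start but lies inside the GENCODE bounds of the gene, chr10:128900989-128912822, so it is not the sequence before the whole gene.
Cd63: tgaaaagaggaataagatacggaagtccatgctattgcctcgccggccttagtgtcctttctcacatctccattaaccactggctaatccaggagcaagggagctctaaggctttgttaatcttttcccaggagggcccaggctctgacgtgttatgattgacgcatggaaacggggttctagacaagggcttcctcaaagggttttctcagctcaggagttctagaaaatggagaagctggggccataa
Cd9: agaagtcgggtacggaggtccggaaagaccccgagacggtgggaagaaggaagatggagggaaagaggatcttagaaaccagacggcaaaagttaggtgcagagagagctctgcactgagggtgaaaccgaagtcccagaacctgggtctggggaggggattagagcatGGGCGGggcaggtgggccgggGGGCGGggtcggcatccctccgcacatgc
Cd53: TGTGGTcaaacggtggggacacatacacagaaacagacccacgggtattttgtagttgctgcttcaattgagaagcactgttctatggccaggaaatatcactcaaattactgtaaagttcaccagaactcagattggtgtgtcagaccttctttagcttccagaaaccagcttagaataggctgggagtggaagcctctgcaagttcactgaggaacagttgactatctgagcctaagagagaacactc
The Cd63 window held none of the 7 motifs. The Cd9 window held 2 GC boxes, which begin 81 and 60 bases before the RefSeq start. The 31 bases nearest that start were left off the printed Cd9 sequence. The Cd53 window held 1 RUNX match at its first base. Among all 32851 windows of 250 bases, the GC box, searched as GGGCGG, was held by 32.7%. The RUNX motif was searched as TGTGGT and was held by 14.0%, and the TATA box as TATAAA by 12.4%. The AP-1 motif, as TGANTCA, was held by 6.75%, and the E-box, as CACGTG, by 6.02%. The T-box motif was searched as GGTGTGA, held by 3.33%, and the ETS motif as CCGGAAGT, held by 2.88%. The Cd81 window held 3 GC boxes. Over their full 250 bases, the windows of Cd81 and Cd9 were 65.6% and 61.6% G or C and those of Cd63 and Cd53 48.8% and 45.2%. The median over all windows was 52.4%. The match of letters is a description of these windows only.

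Library totals over the genes analysed ranged from 1666637 to 2826766 counts, with 1948 to 3292 genes detected. The 7 members held 1.35% to 2.01% of a library's counts over these genes, which is not a share of the whole library. The libraries of ILC1 from obese mouse 26 and of NK cells from lean mouse 27 stood apart from their groups. The chi-square per degree of freedom between replicates was 500 and 514 for the first and 117 and 113 for the second, against 12.8 between the other lean NK libraries and 140 between the other obese ILC1 libraries. In ILC1 of obese mouse 26, hepatocyte markers took 9.27% of the counts of the genes analysed. In any NK or lean ILC1 library they took at most 0.0428%. Hepatocyte markers summed to 321, 1242 and 298155 normalized counts in obese ILC1, in ascending order, and to at most 783 in the other groups. In ILC1 of obese mouse 26, macrophage and Kupffer cell markers took 1.58%, endothelial markers 0.798% and B cell markers 0.568%. The ILC1 markers Cxcr6, Cd200r1 and Ccr8 were low in that library. Cd200r1, an inhibitory receptor, was at 860 normalized counts there, against 6171 and 4383 in ILC1 of obese mice 25 and 27. Other genes higher in ILC1 than in NK cells went the other way. Cd63, Cd3d and Cd3e were at 1332, 1546 and 1475 in that library, above both other obese ILC1 libraries, and Cd3g lay between them. The NK library of lean mouse 27 and the ILC1 library of obese mouse 25 detected the fewest genes, 1948 and 2014. Of the 9 genes fixed as markers of NK cells and ILC1, 4 were in the genes analysed, and the symbols of the others come later in the alphabet. Cxcr6 and Cd200r1 were called higher and Cma1, a mast cell protease gene high in these NK cells, was called lower in ILC1 than in NK cells in both lean and obese mice. Ccr8 was called higher in ILC1 of lean mice.

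Levels were compared between members only per length. On the scale of CPM per kilobase of exon, that is, counts scaled to library size and to exon length, Cd53 had the highest level in all 4 groups, from 4398 ± 419 (SD, n = 3) in lean ILC1 to 5005 ± 626 in lean NK cells. Its lowest library lay above the highest of the next member in each group. In lean NK cells the order below Cd53 was Cd9 (1355 ± 49.1), Cd82 (902 ± 58.8), Cd37 (561 ± 95.7), Cd151 (25.9 ± 15.2), Cd81 (2.57 ± 2.53) and Cd63 (0.765 ± 0.454), and only Cd81 and Cd63 overlapped. In lean ILC1 the order was Cd82 (1302 ± 47.7), Cd9 (529 ± 55.0), Cd37 (467 ± 11.6), Cd63 (99.4 ± 14.2), Cd151 (40.2 ± 23.0) and Cd81 (19.8 ± 13.1), with only Cd151 and Cd81 overlapping. Cd9 and Cd82 thus exchanged places between the cell types, and Cd63 moved from the last place to the fifth. In obese NK cells, Cd9 (1154 ± 50.1) and Cd82 (1093 ± 174) overlapped, as did Cd63 (5.14 ± 2.27) and Cd81 (4.54 ± 0.674). In obese ILC1 the means ran Cd82, Cd9, Cd81, Cd37, Cd63 and Cd151, and neighbours overlapped except Cd37 and Cd63. The place of Cd81 above Cd37 rested on the ILC1 library of obese mouse 26. Cd81 had 47.3, 144 and 1639 in ascending order, the last in that library, and Cd37 ran from 354 to 458. With coding length in place of exon length, Cd82 passed Cd9 in obese NK cells and Cd37 passed Cd9 in lean ILC1.

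**Figure D1:**
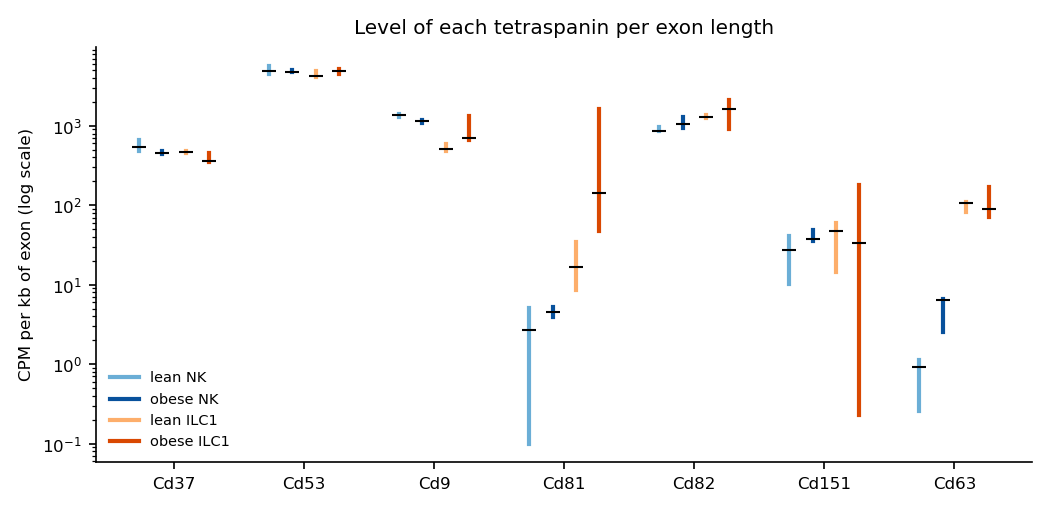
Level of each tetraspanin in CPM per kilobase of exon on a log axis, with a vertical line from the lowest to the highest of 3 libraries and a dash at the median for each group. A library at 0 (Cd81 in NK cells of lean mouse 27) is drawn at the foot of the axis. Cd53 lies above every other member, and Cd63 is the lowest member in lean NK cells and lies near 100 in ILC1.

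NK cells and ILC1 were compared within each diet, which asks how the cell types differ in their tetraspanins. A gene was called when its adjusted p was under 0.05 and its fold change over 2. In lean mice, Cd63 was higher and Cd9 lower in ILC1, so 2 of the 7 members were called, where 2.3% of all genes tested were called. In obese mice, Cd63 alone was called, against 0.921% of all genes tested. The remaining members did not pass in either diet, and Cd53 and Cd37 differed by less than 0.3 on the log2 scale. RNA from bulk sorted cells cannot tell fewer cells of a type from less RNA per cell.

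**Figure D2:**
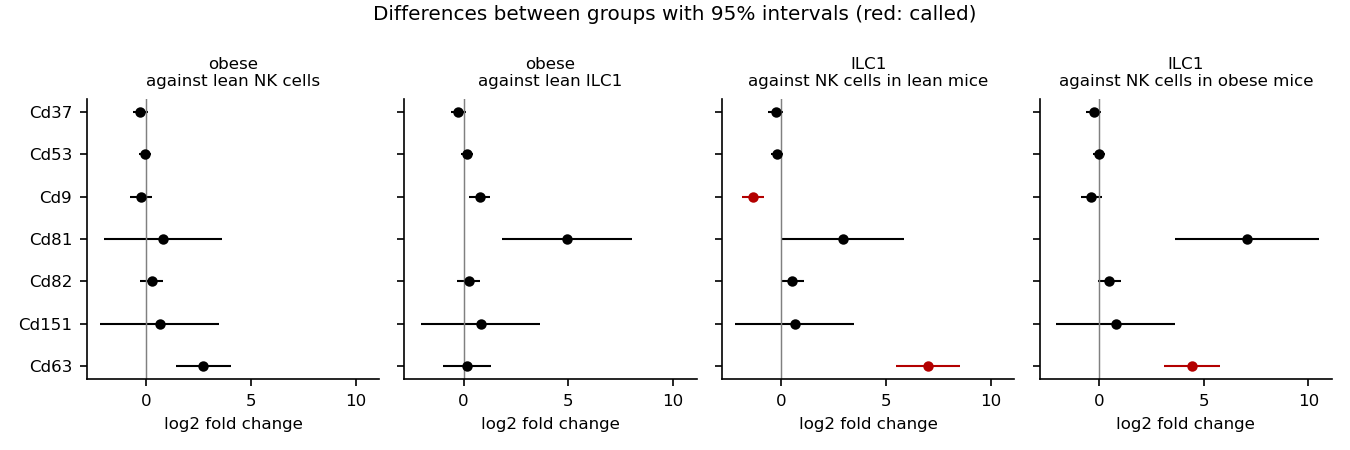
Fitted log2 fold change of each tetraspanin (point) with its 95% interval (line) in 4 comparisons, red where called by edgeR. Cd63 is called in both comparisons of ILC1 with NK cells, Cd9 in lean mice only, and no member is called between obese and lean mice.

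Cd63 had normalized counts of 7, 8 and 2 in NK cells of lean mice 25, 26 and 27, and of 780, 598 and 778 in the ILC1 of the same mice. Every ILC1 library lay above every NK library, and the NK values rested on 7, 8 and 2 raw counts. The fitted log2 difference was 7.0 (SE 0.70, 95% interval 5.46 to 8.53, edgeR adjusted p = 0.000488). With the mouse as a block it was 7.12 (adjusted p = 0.0157), and leaving out any library kept the call. In obese mice 25, 26 and 27, Cd63 stood at 46, 46 and 18 in NK cells and at 519, 1332 and 645 in ILC1. The groups again did not overlap, and the log2 difference was 4.43 (SE 0.61, 95% interval 3.09 to 5.77, edgeR adjusted p = 0.00704). This call was lost with the mouse as a block (4.45, adjusted p = 0.107), with only the 6 obese libraries in the fit (4.43, adjusted p = 0.143) and without the NK library of obese mouse 25 (4.61, adjusted p = 0.0558). Without the ILC1 library of obese mouse 26 it was 3.95 (adjusted p = 0.00627). Within mice, Cd63 in ILC1 was 111, 74.8 and 389 times its NK level in lean mice 25, 26 and 27 and 11.3, 29.0 and 35.8 times in obese mice 25, 26 and 27. The summed T cell markers also differed between the cell types, at 13879 to 16762 normalized counts in lean ILC1 and 3049 to 13416 in obese ILC1, against at most 929 in NK cells. Cd3g alone had 12468, 12983 and 13673 in lean ILC1 and 12599, 3493 and 2037 in obese ILC1. Cd8a and Cd8b1 were at 0 in all lean ILC1 libraries. Among the tested T cell markers, Cd3d, Cd3e and Cd3g were called higher in lean ILC1, and only Cd3g in obese ILC1. Macrophage and Kupffer cell markers summed to 178 to 466 in lean ILC1 against 167 to 1159 in lean NK cells, and to 1950 to 50926 in obese ILC1 against 233 to 325 in obese NK cells. The median log2 difference of ILC1 from NK cells was 4.87 in lean and 3.99 in obese mice for the tested T cell markers, and 5.22 and 7.0 for the macrophage and Kupffer cell markers. The part of either list in the Cd63 difference was not tested.

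Cd9 encodes a tetraspanin that associates with integrins and is found on many cell types. Its normalized counts were 5396, 5677 and 5393 in lean NK cells and 2060, 1921 and 2397 in lean ILC1. All lean ILC1 libraries were below all lean NK libraries, and the log2 difference was -1.36 (SE 0.24, 95% interval -1.88 to -0.84, edgeR adjusted p = 0.0115). The call was lost with the mouse as a block (-1.36, adjusted p = 0.0765), without the NK library of lean mouse 26 (-1.33, adjusted p = 0.0516), and without the ILC1 library of lean mouse 25 (-1.34, adjusted p = 0.0605) or 26 (-1.30, adjusted p = 0.0719). In obese mice, Cd9 was at 4641, 4330 and 4714 in NK cells and at 2877, 5667 and 2671 in ILC1. The groups overlapped through the ILC1 library of mouse 26, the one with hepatocyte transcripts, and the log2 difference was -0.36 (SE 0.23, 95% interval -0.87 to 0.15, edgeR adjusted p = 0.616). Without that library it was -0.75 (adjusted p = 0.0171), under the 2-fold threshold. The ratio of ILC1 to NK cells in the same mouse was 0.382, 0.338 and 0.444 in lean mice and 0.620, 1.31 and 0.567 in obese mice 25, 26 and 27.

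Cd81 encodes a tetraspanin that is expressed widely, also outside lymphocytes. Its normalized counts were 15, 29 and 0 in lean NK cells, 93, 193 and 49 in lean ILC1, 25, 29 and 22 in obese NK cells and 820, 9912 and 266 in obese ILC1. ILC1 libraries lay above NK libraries in both diets, and ILC1 of obese mouse 26 stood far above all others. The log2 difference of ILC1 from NK cells was 2.94 in lean mice (SE 1.33, 95% interval 0.02 to 5.87, edgeR adjusted p = 0.372) and 7.06 in obese mice (SE 1.56, 95% interval 3.63 to 10.49, edgeR adjusted p = 0.0640). In obese mice it was 4.38 (adjusted p = 0.128) without the ILC1 library of mouse 26 and 4.36 (adjusted p = 0.0109, called) without that library and the NK library of lean mouse 27. It also passed the test without the NK library of lean mouse 27 (7.06, adjusted p = 0.0279) or the ILC1 library of obese mouse 25 (7.53, adjusted p = 0.0281) or 27 (7.61, adjusted p = 0.0283). DESeq2 gave 7.17 with an adjusted p of 6.19e-06. In ILC1 of obese mouse 26, Cd81 made up 22.8% of the counts of all 7 members, against at most 2.46% in any other library. The markers of other cell types that were high in the same library are given above with their shares, and their part in the Cd81 level was not tested.

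**Figure D3:**
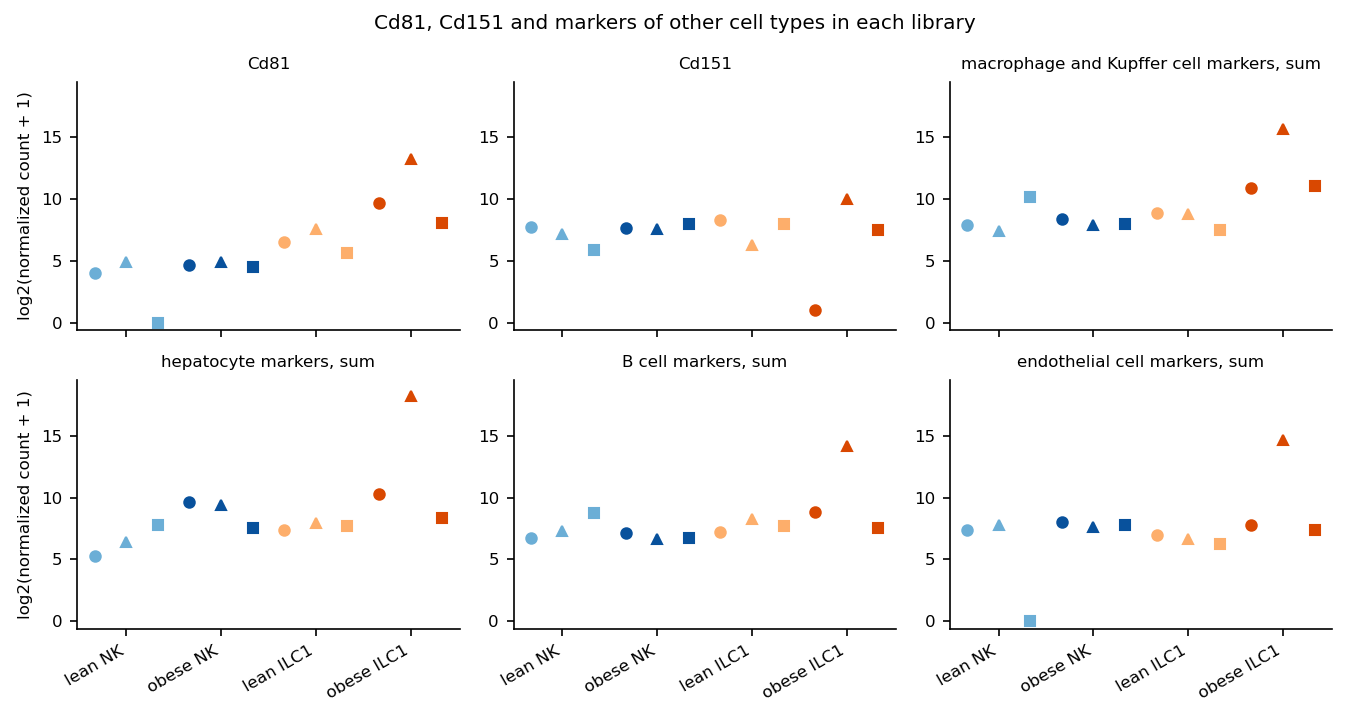
Cd81, Cd151 and the summed markers of 4 other cell types in each library, as log2(normalized count + 1), coloured by group and with symbols for mouse 25 (circle), 26 (triangle) and 27 (square). The ILC1 library of obese mouse 26 has the highest value in all 6 panels.

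Cd82 encodes a tetraspanin known as a suppressor of metastasis. It had normalized counts of 5059, 5187 and 5884 in lean NK cells, 7332, 7938 and 7785 in lean ILC1, 5570, 7441 and 6023 in obese NK cells and 9601, 5702 and 12307 in obese ILC1. Lean ILC1 lay above lean NK cells without overlap, whereas the obese groups overlapped through the ILC1 library of mouse 26. The log2 difference of ILC1 from NK cells was 0.53 in lean mice (95% interval -0.02 to 1.08, edgeR adjusted p = 0.409) and 0.49 in obese mice (95% interval -0.06 to 1.05, edgeR adjusted p = 0.421). Without that library the obese value was 0.75 (adjusted p = 0.0313), under the 2-fold threshold.

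Cd151 encodes a tetraspanin bound tightly to laminin-binding integrins. Its normalized counts scattered widely, at 217, 146 and 57 in lean NK cells, 200, 187 and 257 in obese NK cells, 315, 78 and 256 in lean ILC1 and 1, 1023 and 178 in obese ILC1. All groups overlapped. The fitted differences lay between 0.63 and 0.81 on the log2 scale in the 4 comparisons, with an interval from -2.19 to 3.46 for ILC1 against NK cells in lean mice. In obese mice the difference of ILC1 from NK cells changed from 0.79 to -1.28 without the ILC1 library of mouse 26.

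Cd53 and Cd37, the leukocyte-restricted members, were not called in any comparison. Cd53 ranged from 13804 normalized counts in ILC1 of lean mouse 25 to 20005 in NK cells of lean mouse 27, and made up 37.9% to 55.5% of the members' counts in a library. Its log2 difference of ILC1 from NK cells was -0.19 in lean mice (95% interval -0.48 to 0.11) and 0.00 in obese mice (95% interval -0.29 to 0.30). Within mice, the ratio of ILC1 to NK cells was 0.834, 0.943 and 0.844 in the lean mice and 1.05, 1.03 and 1.04 in the obese mice. Cd37 had 3719, 3321 and 4731 normalized counts in lean NK cells and 3290, 3160 and 3244 in lean ILC1, a log2 difference of -0.26 (95% interval -0.62 to 0.10). In obese mice Cd37 stood at 3150, 3036 and 3302 in NK cells and 2496, 3384 and 2429 in ILC1, a log2 difference of -0.25 (95% interval -0.61 to 0.11).

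**Figure D4:**
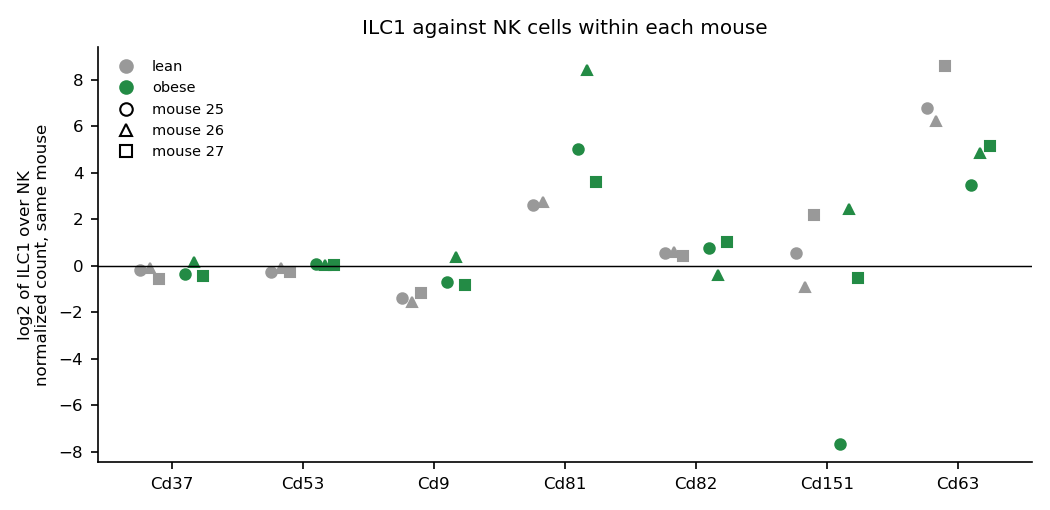
Log2 of the ILC1 over the NK normalized count of each tetraspanin within each mouse, grey for lean and green for obese mice, with symbols for the mouse number. Lean mouse 27 has no Cd81 point because its NK library held 0 counts. Cd63 and Cd81 lie above 0 in every mouse plotted, and Cd9 lies below 0 in all but obese mouse 26.

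Obese and lean mice were then compared within each cell type, which asks whether diet was accompanied by a change in the same genes. By the edgeR test, no member was called in either cell type, and 0% of all genes tested were. In NK cells, 31 of the 2606 genes tested had an unadjusted edgeR p under 0.05, among them 1 of the 7 members, Cd63. DESeq2, fitted to all 5545 genes analysed, called 8 genes there, 1 of them Cd63. In ILC1 the numbers at an unadjusted edgeR p under 0.05 were 277 of 2606 genes and 2 of 7 members, Cd9 and Cd81. DESeq2 called 77 of the 5545 genes there, 1 of them Cd81.

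In NK cells, Cd63 went from 7, 8 and 2 normalized counts in lean mice to 46, 46 and 18 in obese mice. These are means of 5.67 ± 3.21 and 36.7 ± 16.2 (SD, n = 3), and the groups did not overlap. The log2 difference was 2.73 (SE 0.59, 95% interval 1.42 to 4.04), with an adjusted p of 0.983 by edgeR and of 0.0143 by DESeq2. Over the 12 fits that each left out 1 library the log2 difference stayed between 2.32 and 3.11. The study displayed Cd63 among the genes higher in obese NK cells, so its choice is not independent of these samples. Obese NK cells held Cd63 at 8.86%, 3.45% and 2.79% of the ILC1 level of the same mouse, and lean NK cells at 0.897%, 1.34% and 0.257%. Of the 3 ILC1 markers among the genes analysed, Cxcr6 and Cd200r1 were also higher in every obese NK library, at log2 differences of 1.97 and 2.58, both with an edgeR adjusted p of 1. Ccr8 did not separate the NK groups, with 1, 0 and 0 normalized counts in lean and 0, 0 and 4 in obese mice. Cxcr6, a chemokine receptor gene, went from 100, 76 and 58 to 202, 564 and 133 normalized counts, and Cd200r1 from 35, 14 and 11 to 85, 164 and 107. In the NK cells of obese mice 25, 26 and 27 Cxcr6 stood at 1.15%, 8.99% and 1.16% of the ILC1 level of the same mouse, and Cd200r1 at 1.38%, 19.1% and 2.44%. The ILC1 library of mouse 26 is the one rich in hepatocyte transcripts and low in these markers. The 8 T cell markers, all among the genes analysed, had sums of 254 to 448 in NK cells of lean mice and of 441 to 929 in those of obese mice. The 11 hepatocyte markers summed to between 38 and 221 in NK cells of lean mice and between 183 and 783 in those of obese mice, and Apoe went from 103, 120 and 138 to 576, 579 and 407 normalized counts without overlap. The 10 macrophage and Kupffer cell markers summed to between 167 and 1159 in NK cells of lean mice and between 233 and 325 in those of obese mice. Among them, Adgre1, Cd5l, Cd14 and Csf1r were at 0 in all lean NK libraries, and none was at 0 throughout the obese ones. Cd163 and Cd68 of the same list went the other way, at log2 differences of -2.03 and -0.89. The median log2 differences of the tested genes of these lists were 1.29 (T cell), 3.44 (hepatocyte) and 3.03 (macrophage and Kupffer cell), with 0 called. The part of these other transcripts in the Cd63 difference was not tested.

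Also in NK cells, Cd9 was at 5396, 5677 and 5393 in lean and at 4641, 4330 and 4714 in obese mice, and Cd37 at 3719, 3321 and 4731 in lean and 3150, 3036 and 3302 in obese mice. Both were lower in every obese library, at log2 differences of -0.23 (95% interval -0.74 to 0.28) and -0.27 (95% interval -0.63 to 0.09). With Cd63, 3 of 7 members did not overlap between lean and obese NK cells, against 16.2% of all genes tested. The exact permutation test of 3 libraries against 3 cannot give a p below 0.1. Cd82, Cd53, Cd81 and Cd151 overlapped, and their log2 differences were 0.28 (95% interval -0.28 to 0.83), -0.04 (95% interval -0.33 to 0.25), 0.82 (95% interval -1.99 to 3.64) and 0.65 (95% interval -2.18 to 3.47).

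**Figure D5:**
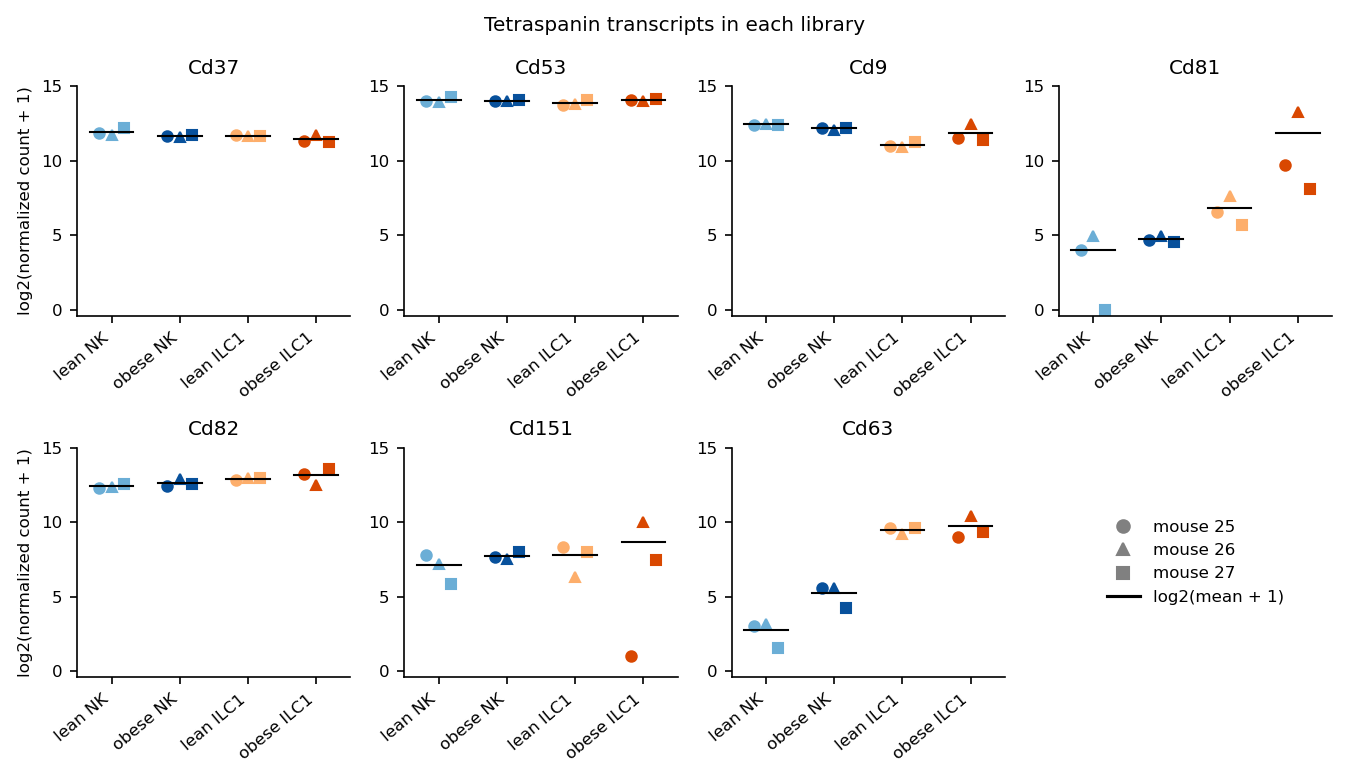
Normalized count of each tetraspanin in each of the 12 libraries as log2(normalized count + 1), by group, with symbols for the mouse number and a bar at the log2 of the group mean plus 1. Cd53 and Cd37 lie level across groups, Cd63 is lowest in lean NK cells, next in obese NK cells and highest in ILC1, and Cd81 and Cd151 spread most in obese ILC1.

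In ILC1, Cd63 was at 780, 598 and 778 normalized counts in lean and 519, 1332 and 645 in obese mice. The groups overlapped, and the log2 difference was 0.16 (SE 0.53, 95% interval -1.0 to 1.32), or -0.31 without obese mouse 26. The difference of the diet effect on Cd63 between ILC1 and NK cells was -2.57 on the log2 scale (95% interval -4.29 to -0.85, edgeR adjusted p = 0.741). Cd81 was at 93, 193 and 49 in lean and 820, 9912 and 266 in obese ILC1, without overlap. Its log2 difference was 4.94 (SE 1.41, 95% interval 1.84 to 8.04), with an adjusted p of 0.263 by edgeR and of 0.00836 by DESeq2. Leaving out obese mouse 26 brought it to 2.27 (edgeR adjusted p = 0.577). The macrophage and Kupffer cell markers summed to 178 to 466 normalized counts in lean ILC1 and to 1950, 2120 and 50926, in ascending order, in obese ILC1, and their part in the Cd81 difference was not tested.

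Cd9 was higher in every obese ILC1 library (2877, 5667 and 2671 normalized counts) than in every lean one (2060, 1921 and 2397). The log2 difference was 0.77 (SE 0.23, 95% interval 0.25 to 1.28, edgeR adjusted p = 0.287), and 0.38 (adjusted p = 0.386) without obese mouse 26. Cd9 and Cd81 were the 2 of 7 members without overlap between lean and obese ILC1, against 15.2% of all genes tested. Cd37, Cd53 and Cd82 differed by -0.26, 0.15 and 0.24 on the log2 scale, and Cd151 by 0.81 (95% interval -2.03 to 3.64), or by -1.26 without obese mouse 26. Between the cell types, 5 of 7 members did not overlap in lean mice (Cd63, Cd81 and Cd82 higher in ILC1, Cd9 and Cd37 lower) against 24.9% of all genes tested, and 2 of 7 in obese mice (Cd63 and Cd81) against 23.1%.

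Genes whose profile over the 12 libraries was closest to that of a called member were found by the root mean square difference between mean-centred log2 CPM profiles. For Cd9 these were Brwd1, Cers2 and Anxa1, at 0.21, 0.23 and 0.26, where the SD of Cd9 itself was 0.59. Anxa1, an annexin gene, had 6925, 5985 and 4751 normalized counts in lean NK cells and 5964, 5549 and 5436 in obese NK cells. These NK groups overlapped, unlike those of Cd9. In ILC1 Anxa1 had 2450, 2229 and 2374 in lean mice and 4599, 4812 and 3827 in obese mice. For Cd63 they were Ckb, Adam8 and Cd101, at 0.82, 0.87 and 0.88, where the SD of Cd63 itself was 3.08. Cd101, an inhibitory receptor gene, had 0, 0 and 1 normalized counts in lean NK cells, 21, 5 and 19 in obese NK cells and 175 to 421 in ILC1. Ckb, the brain-type creatine kinase gene, had 4, 46 and 5 in lean NK cells, 40, 76 and 36 in obese NK cells and 655 to 1921 in ILC1. The libraries shared by these profiles are the same 12 for every gene.

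Other genes around tetraspanins were described by 3 lists. Of 13 partner and neighbouring surface receptors, such as the sheddase Adam10 and the hyaluronan receptor Cd44, 11 were tested, and 1 was called in each comparison of ILC1 with NK cells, Cd2, an adhesion receptor that binds CD48. Cd2 was lower in ILC1 by -1.01 on the log2 scale in lean mice (SE 0.22, edgeR adjusted p = 0.0331) and by -1.26 in obese mice (SE 0.22, edgeR adjusted p = 0.0205). The 1 gene called is to be read beside the 2.3% of all genes tested that were called in lean mice and the 0.921% in obese mice. Neither call held with the mouse as a block, where 0 of these 11 genes were called. The median log2 difference of the 11 genes was 0.35 in lean and 0.83 in obese mice, beside 0.06 and 0.02 over all genes tested. Of 20 subunits of the clathrin adaptor complexes, which sort CD63 by its tyrosine motif, 19 were tested and 0 were called in any comparison, with medians from -0.11 to 0.26. Of 23 genes for ESCRT-III and lysosome positioning, 19 were in the genes analysed, 18 were tested and 0 were called, with medians from -0.21 to 0.14. The number of all genes with an unadjusted p under 0.05 in the 4 comparisons was 31, 277, 346 and 369, and DESeq2 called 8, 77, 151 and 154 genes.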

How the data were processed

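RNA was extracted with a column kit from sorted cells, and libraries were made from 2 ng of total RNA. Per the labels and the submitters' processing notes, the authors used bcl2fastq 2.19, Trimmomatic 0.36.5, STAR 2.5.2b and featureCounts 1.6.0.2 on mm10. The authors deposited raw read counts per gene and normalized counts from SARTools, which are rounded to whole numbers and treated here as a score. Annotation, strandedness and the method within SARTools are not given in the sources used here.

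Of 5546 rows, 1 incomplete row was left out. Counts of the 12 libraries were fitted with edgeR 4.0.16 in R 4.3.3 (quasi-likelihood test, TMM, filterByExpr, 1 mean per group), and p-values were adjusted by Benjamini-Hochberg over 2606 genes tested. Both sides were tested. DESeq2 1.42.0, other filters, size factors, the libraries compared alone, the mouse as a block and each library left out were alternatives, and leaving out 2 libraries together was added after seeing the data. Mouse numbers pair the libraries, since the series design says that both cell types were isolated from each animal. Correlations of their deviations ranged from -0.0763 to 0.141. The script was tested on simulated data. Values per length used TMM-scaled CPM, with library size taken over the genes tested, and the exon union of GENCODE M21.

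The members and gene lists were chosen with earlier results of these data known. Named were all members, up to 4 called genes of each other list with the largest change, and the 3 genes closest in profile to each called member. Genes named outside this rule were Apoe, which is in no list, Adam10, Cd44, Cd8a, Cd8b1 and single macrophage and Kupffer cell markers. Ckb and Anxa1 were described, and Ccr8, Cxcr6 and Cd200r1 set beside Cd63, after their values were seen. No protein sequence is shown.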

Additional observations from a re-analysis of the deposited data

Results flagged for a closer look

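Cd9 was flagged because diet went with opposite directions in the cell types. Every obese NK library was below every lean NK library, and every obese ILC1 library was above every lean ILC1 library. The difference of the diet effects was 1.0 on the log2 scale (SE 0.33, 95% interval 0.27 to 1.72), with an unadjusted p of 0.0114 and an adjusted p of 0.789 by edgeR, so it missed the threshold. Without the ILC1 library of obese mouse 26 it was 0.62 (adjusted p = 0.548), and the remaining obese ILC1 libraries, at 2877 and 2671 normalized counts, were still above the lean maximum of 2397. Cd53 was flagged because ILC1 held less than NK cells in all 3 lean mice and more in all 3 obese mice. The difference was 0.19 on the log2 scale (SE 0.19, 95% interval -0.22 to 0.60, edgeR adjusted p = 0.996). No outlier test was run on these groups of 3 libraries.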

How the results depend on the processing

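Called members numbered 0 in obese against lean NK cells and ILC1, 2 between the cell types in lean mice and 1 in obese mice. DESeq2 gave 1, 1, 2 and 2, so it added Cd63, Cd81 and Cd81, where 8, 77, 151 and 154 of the 5545 genes it was fitted to were called. A minimum of 10 counts in every library removed Cd63, Cd81 and Cd151 from the test and left 1 and 0 calls between the cell types. The mouse as a replicate block left 1 call in lean mice (Cd63) and 0 in obese mice, and changed no other call of a member, and a fit of only the libraries compared left 0 in obese mice. Leaving out each library gave 1 to 2 calls in lean and 0 to 2 in obese mice, and leaving out ILC1 of obese mouse 26 and NK cells of lean mouse 27 together gave 2 in each, Cd63 and Cd9 in lean and Cd63 and Cd81 in obese mice. DESeq2 size factors, no filter on low counts and no fold threshold kept all counts of called members. No paired fit exists between obese and lean mice, which are different animals.

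Signs changed only for differences that were not called. With each library left out in turn, Cd53 ran from -0.12 to 0.060 in obese against lean NK cells. In obese against lean ILC1, Cd63 ran from -0.31 to 0.40, Cd82 from -0.049 to 0.51 and Cd151 from -1.26 to 1.39. Between the cell types in obese mice, Cd53 ran from -0.046 to 0.045 and Cd151 from -1.28 to 1.38. For the difference of the diet effects, Cd37 ran from -0.13 to 0.12, Cd82 from -0.33 to 0.24 and Cd151 from -1.90 to 0.74. With both libraries left out, the values in that order were 0.060 (Cd53), -0.31 (Cd63), -1.25 (Cd151), -1.28 (Cd151), -0.27 (Cd37), 0.17 (Cd82) and -1.52 (Cd151). The block gave -0.94 for Cd151 between the cell types in obese mice, and -1.55 for Cd151 and -0.011 for Cd37 in the difference of the diet effects. No filter gave -0.025 for Cd53 between the cell types in obese mice and -0.019 for Cd37 in the difference of the diet effects, where DESeq2 gave 0.010 and its size factors 0.0095 for Cd82. The cause was not tested. With 2 to 8 raw counts of Cd63 in lean NK libraries, the precision of its NK values is limited by counting. Over the 2606 genes tested, edgeR called 0, 0, 60 and 24 in the 4 comparisons. Over all 5545 genes analysed, without that filter, DESeq2 called 8, 77, 151 and 154.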
